A study of Mus musculus with 12 samples.

Results

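The cornified envelope genes encode proteins that are laid down under the plasma membrane of squamous epithelial cells as these mature. The set was taken by gene name and held 9 genes: Sprr1a, Sprr1b, Sprr2a1, Sprr2d, Sprr3, Ivl, Tgm1, Tgm3 and Krtdap. A row was found for 6 of the 9, of 28075 genes in the F1 or the F3 table, with 5 in the F1 table and 6 in the F3 table. Sprr1b, Sprr2d and Sprr3, and Sprr2a1 in F1, were not analysed here. The small proline-rich proteins (Sprr genes) and involucrin (Ivl) are structural precursors of the envelope, the transglutaminases Tgm1 and Tgm3 join the precursors by isopeptide bonds, and Krtdap encodes a secreted protein of differentiating keratinocytes. Most of the structural genes lie together in the epidermal differentiation complex. A cornified envelope is a feature of skin and other stratified squamous epithelia, while the normal prostate has a glandular epithelium of luminal and basal cells.

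Prostate messenger RNA was sequenced in male mice of the F1 generation (offspring of dosed females) and the F3 generation (their great-grandoffspring) after chlordecone, also named kepone, an organochlorine insecticide. In the chlordecone groups the dose had gone to the pregnant F0 females, at 100 µg/kg/day over the E6.5-E15.5 window of gestation, so that F1 males were exposed in the womb and F3 males descended from them. The control groups are labelled as control only, and no source used here gives the strain, the age or any vehicle. The libraries analysed were 3 F1 chlordecone, 2 F1 control, 3 F3 chlordecone and 3 F3 control, since F1 control 3 was not analysed here. The labels do not say whether the samples were separate animals or shared a litter, so each p-value measures only the spread between these samples.

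The sequence just upstream of a gene is where most of its known control elements lie, and AP-1 (Fos and Jun) sites there are known to drive small proline-rich and involucrin genes in keratinocytes. The windows of Sprr1a, Sprr2a1, Ivl and Krtdap are shown because the results turn on these genes. Each is RefSeq sequence of GRCm38.p6 that ends at the base before the annotated start of the gene, written on the strand of the gene, with matches to the AP-1 motif TGANTCA in capitals. The motif reads the same on both strands. The windows were chr3:92485896-92486131 on the minus strand for Sprr1a, chr3:92215585-92215798 on the plus strand for Sprr2a1, chr3:92573736-92573985 on the minus strand for Ivl and chr7:30787655-30787895 on the plus strand for Krtdap.
Sprr1a: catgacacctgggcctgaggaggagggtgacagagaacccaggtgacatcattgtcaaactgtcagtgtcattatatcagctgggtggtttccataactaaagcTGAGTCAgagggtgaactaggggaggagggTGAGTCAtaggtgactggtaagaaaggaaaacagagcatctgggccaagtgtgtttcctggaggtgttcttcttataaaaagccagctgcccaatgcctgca
Sprr2a1: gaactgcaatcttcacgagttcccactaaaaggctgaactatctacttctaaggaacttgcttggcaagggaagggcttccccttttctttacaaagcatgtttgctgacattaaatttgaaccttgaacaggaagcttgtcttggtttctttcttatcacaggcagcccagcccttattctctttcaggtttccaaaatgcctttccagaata
Ivl: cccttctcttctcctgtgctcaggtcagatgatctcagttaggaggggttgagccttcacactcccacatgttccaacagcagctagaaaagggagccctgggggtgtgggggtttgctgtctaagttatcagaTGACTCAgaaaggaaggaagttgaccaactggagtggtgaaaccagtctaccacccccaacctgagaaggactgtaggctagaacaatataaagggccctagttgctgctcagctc
Krtdap: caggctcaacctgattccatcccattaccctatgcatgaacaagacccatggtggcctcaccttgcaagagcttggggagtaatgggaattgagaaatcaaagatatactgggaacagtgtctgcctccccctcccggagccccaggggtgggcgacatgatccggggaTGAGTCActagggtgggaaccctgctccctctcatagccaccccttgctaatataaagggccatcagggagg
The Sprr1a window of 236 bases held 2 matches, which began 132 and 102 bases before the start, and 6.5% of 32851 RefSeq windows of that length held at least 1. Ivl held 1 match, 116 bases before the start (6.75% of windows of its length), and Krtdap held 1 match, 72 bases before it (6.6%). Sprr2a1 held none in its 214 bases. The ETS core AGGAAG, searched on both strands, had 1 match in Sprr2a1 (25.4% of windows of its length held at least 1), 2 in Ivl (29.5%), 0 in Sprr1a (27.9%) and 0 in Krtdap (28.5%). No AP-1 and ETS match overlapped in these 4 windows. The TATA motif TATAAA, searched on the strand of the gene, was in the windows of Sprr1a, Ivl and Krtdap (7.31%, 7.59% and 7.42% of windows of those lengths). Windows were found for 8 of the 9 genes, and a match is a description of letters, not a measured binding site.

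Total counts per library were 17228539 to 28061760 in F1 and 71672418 to 114762135 in F3. The summed level of 7 prostate secretory markers, led by Pbsn and Tgm4, was 52332 to 89177 CPM (read counts relative to library size, scaled with TMM factors) in F1 chlordecone and 85903 to 101938 CPM in F1 control libraries, and 87587 to 96936 CPM in F3 chlordecone and 92698 to 105480 CPM in F3 control libraries. Some F1 libraries stood apart in RNA of neighbouring tissue. Markers of the vas deferens and epididymis (7 genes, 6 with a row) summed to 44295, 105 and 13931.5 CPM in F1 chlordecone 1, 2 and 3, against 25.0 and 25.9 CPM in F1 control 1 and 2, and to at most 0.512 CPM in every F3 library. Markers of the seminal vesicle (7 genes) summed to 187024, 430207 and 528811 CPM in F1 chlordecone 1, 2 and 3, against 118447 and 121062 CPM in F1 control 1 and 2, and to 9.91 to 70.2 CPM in the F3 libraries. Because of the vas deferens and epididymis values, the F1 tests of the members below are given with all libraries and without F1 chlordecone 1 and 3. That leaves 1 chlordecone library, which also differed from the controls in tissue markers. F1 chlordecone 2 had 430207 CPM of seminal vesicle markers and the lowest prostate secretory sum, at 52332 CPM. In edgeR's quasi-likelihood test (adjusted p under 0.05), 5 of 17804 genes passed in F1 (0.0281%), 10 of 16766 in F3 (0.0596%) and 122 of 16980 for the difference between the generations (0.718%).

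**Figure D1:**
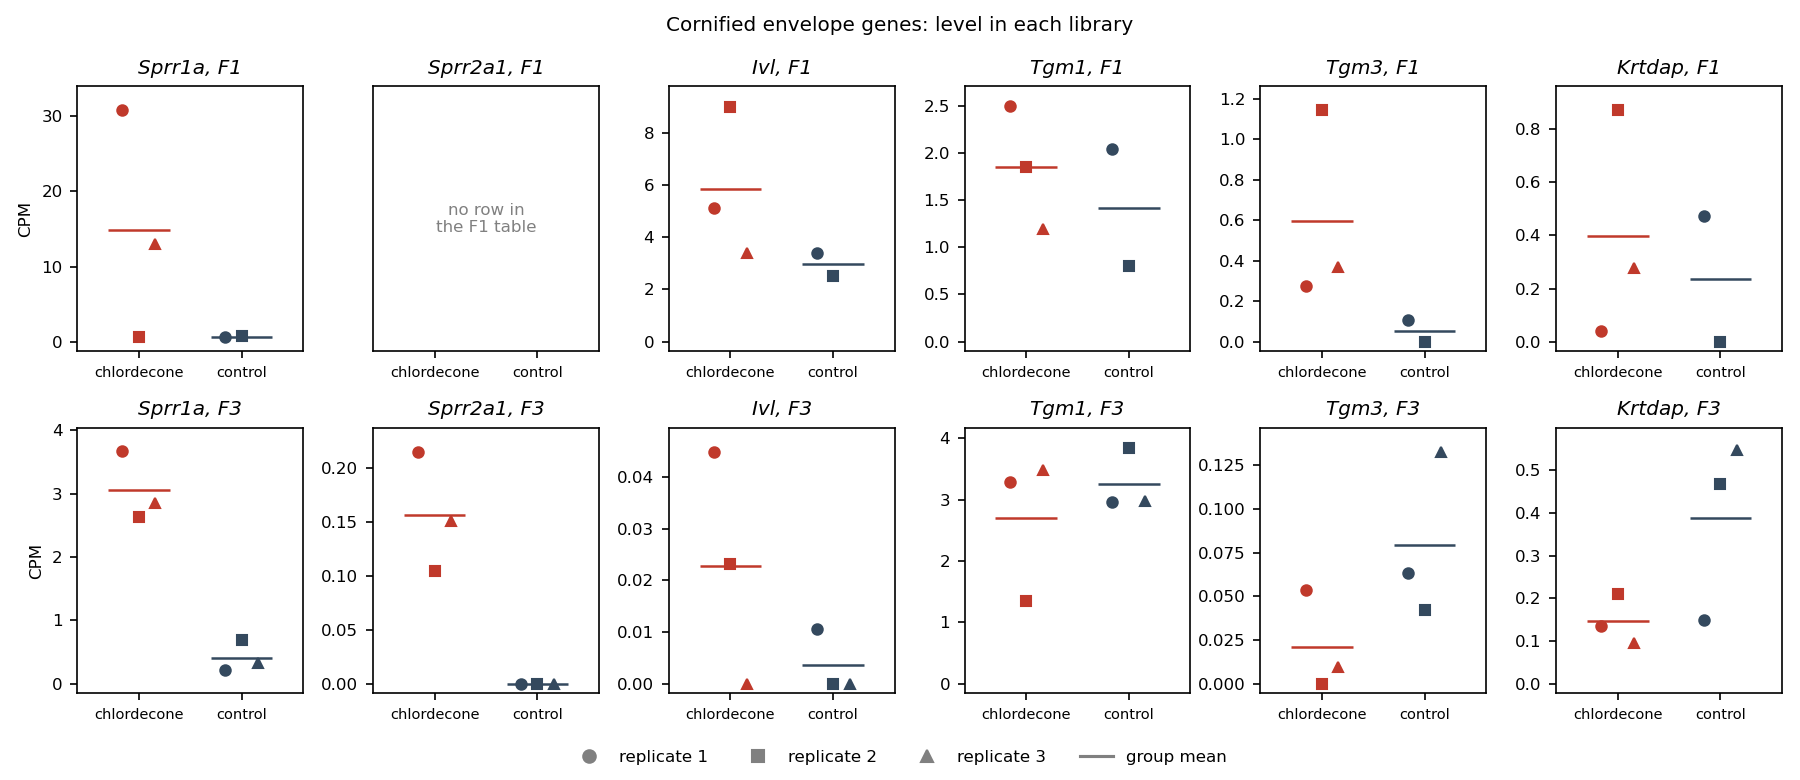
Level of the 6 genes with a row in each library, as CPM scaled with TMM factors, F1 above and F3 below, with a separate linear axis for each gene. Marker shapes give the replicate number and lines the group means. Sprr1a was at 12.9 CPM or more in F1 chlordecone 1 and 3 only, while in F3 all 3 chlordecone libraries lay above all 3 controls.

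Sprr1a and Tgm1 were the only members tested in both generations. Of these, only Sprr1a, a small proline-rich precursor that squamous cells also make under stress, had an unadjusted p in edgeR under 0.05, and it did so in both. Its mean level in chlordecone libraries was 22.3 times that of the controls in F1 and 7.40 times in F3, but in neither generation did it pass the adjusted threshold. The gene lies on chromosome 3 from 92483952 to 92485895, minus strand. In F1 it was at 30.9, 0.654 and 12.9 CPM in chlordecone 1, 2 and 3 (780, 12 and 281 reads), against 0.629 and 0.703 CPM in control 1 and 2 (12 and 15 reads). Chlordecone 1 and 3 were thus high and chlordecone 2 lay between the controls, so the groups overlapped. The means were 14.8 ± 15.2 CPM in chlordecone (SD, n = 3) and 0.666 ± 0.0525 CPM in control libraries (SD, n = 2), a log2 fold change of 4.47 (SE 1.36, edgeR adjusted p = 0.285). The 2 high libraries were those with the highest vas deferens and epididymis markers, whose part in the result was not tested. Without both of them the log2 fold change was -0.026 (SE 2.66, edgeR adjusted p = 0.998), with the remaining chlordecone library assumed to vary like the controls. Without chlordecone 2 it was 5.02 (SE 0.52, edgeR adjusted p = 0.00282), and over all 13 alternatives the adjusted p ranged from 0.00191 (DESeq2) to 0.998.

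In F3, Sprr1a was at 3.67, 2.63 and 2.86 CPM in chlordecone 1, 2 and 3 (409, 226 and 303 reads), against 0.212, 0.693 and 0.332 CPM in control 1, 2 and 3 (20, 49 and 40 reads). All 3 chlordecone libraries were high and the groups did not overlap, as was the case with the chlordecone libraries above in 8.34% of the genes tested. The means were 3.05 ± 0.550 CPM in chlordecone and 0.412 ± 0.251 CPM in control libraries (SD, n = 3 each), a log2 fold change of 2.91 (SE 0.43, unadjusted p = 0.000123, edgeR adjusted p = 0.105). The call depended on the setting: the edgeR adjusted p was 0.00523 with no filter on low counts and 0.0233 without control 2, and DESeq2's adjusted p was 1.59e-11, within a range up to 0.826 over 13 alternatives. The vas deferens and epididymis markers were near 0 here, at 0.434 to 0.512 CPM in chlordecone and 0.199 to 0.307 CPM in control libraries. More cells of a type and more RNA per cell cannot be told apart in these bulk samples.

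Sprr2a1, another small proline-rich precursor (chromosome 3, 92215799 to 92221911, plus strand), was read in the F3 chlordecone libraries and in no F3 control. It had 24, 9 and 16 reads in chlordecone 1, 2 and 3 (0.215, 0.105 and 0.151 CPM) and 0 reads in each of the 3 controls. Against a floor of 3 reads per control library, a mean of 0.0330 CPM, its mean of 0.157 ± 0.0557 CPM (SD, n = 3) was at least 4.75-fold higher, which covers counting error only (edgeR adjusted p = 0.229, DESeq2 adjusted p = 0.00744). It entered both tests only through the chlordecone group, so these p-values are not read as support for a difference. The gene overlaps Sprr2a2 on the same strand and is nearly identical to Sprr2a2 and Sprr2a3, so the reads may be divided among the copies.

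Summed over Sprr2a1, Sprr2a2 and Sprr2a3, the F3 level was 0.404, 0.267 and 0.434 CPM in chlordecone 1, 2 and 3, against 0.0106, 0.0707 and 0.158 CPM in control 1, 2 and 3. The groups again did not overlap, as with the chlordecone libraries above in 8.34% of the genes tested. The log2 fold change was 2.14 (SE 0.69, edgeR adjusted p = 0.414), for a sum formed after the values were seen. With 1, 5 and 19 reads in the controls, the sum met the edgeR filter on low counts only with the chlordecone libraries. Its p-value is therefore not read as support for a difference. In F1, of these copies Sprr2a3 had a row. It was at 27.0, 0.164 and 4.33 CPM in chlordecone 1, 2 and 3, against 0.105 and 0.375 CPM in control 1 and 2. Chlordecone 1 and 3 were again the high libraries, and the log2 fold change was 5.40 (SE 1.84, edgeR adjusted p = 0.325, DESeq2 adjusted p = 0.00378). With 2 and 8 reads in the controls, Sprr2a3 met the edgeR filter on low counts only through the chlordecone libraries. Its p-values are therefore not read as support for a difference.

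Ivl encodes involucrin, an early scaffold of the envelope (chromosome 3, 92570902 to 92573735, minus strand). In F1 it was at 5.11, 9.0 and 3.41 CPM in chlordecone 1, 2 and 3, against 3.41 and 2.53 CPM in control 1 and 2. The highest library was chlordecone 2, where Sprr1a was lowest among the chlordecone libraries, and chlordecone 3 was level with control 1. The chlordecone libraries lay above the controls by that margin alone, as they did by some margin in 16.2% of the genes tested. The means were 5.84 ± 2.87 CPM in chlordecone (SD, n = 3) and 2.97 ± 0.619 CPM in control libraries (SD, n = 2), a log2 fold change of 0.97 (SE 0.58, edgeR adjusted p = 0.585), which was 1.6 without chlordecone 1 and 3 (edgeR adjusted p = 0.134, in a range of 0.134 to 0.937 over 13 alternatives) and 0.52 without chlordecone 2 (edgeR adjusted p = 0.508). In F3 there were 5, 2 and 0 reads in chlordecone and 1, 0 and 0 reads in control libraries, both with a mean under the floor of 3 reads per library, so no fold is given and the gene did not pass the filter.

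Tgm1, the membrane-bound transglutaminase of keratinocytes (chromosome 14, 55700009 to 55713926, minus strand), had overlapping groups in both generations. In F1 it was at 2.49, 1.85 and 1.2 CPM in chlordecone 1, 2 and 3, against 2.04 and 0.797 CPM in control 1 and 2. The highest and the lowest library were thus of different groups, with a log2 fold change of 0.38 (SE 0.86, edgeR adjusted p = 0.911) that was the same to 2 decimals without chlordecone 1 and 3. In F3 it was at 3.29, 1.35 and 3.48 CPM in chlordecone 1, 2 and 3, against 2.96, 3.85 and 2.98 CPM in control 1, 2 and 3. Chlordecone 2 was the low library, and the log2 fold change was -0.27 (SE 0.35, edgeR adjusted p = 0.785). Its direction turned in each generation when 1 library was left out: it was -0.14 without F1 control 2 and 0.055 without F3 chlordecone 2. Gm49067 lies over Tgm1 on the opposite strand, and their reads may not have been told apart.

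Tgm3, the transglutaminase of the later epidermis and hair follicle (chromosome 2, 130012349 to 130050399, plus strand, with Mir6339 on the other strand), did not pass the filter in either generation. It had 7, 21 and 8 reads in F1 chlordecone 1, 2 and 3, against 2 and 0 reads in F1 control 1 and 2. It had 6, 0 and 1 reads in F3 chlordecone 1, 2 and 3, against 6, 3 and 16 reads in F3 control 1, 2 and 3. The F1 groups did not overlap, with chlordecone above, as in 16.2% of the genes tested, and the F1 control mean was under the floor, so no fold is given. The F3 groups overlapped. The fitted F3 effect minus the F1 effect was -5.23 on the log2 scale (SE 2.19, unadjusted p = 0.0331, edgeR adjusted p = 0.246). That value rests on those few control reads. It was -10.0 without F1 control 1 and -4.21 without F1 control 2, with an adjusted p of 0.168 to 0.476 over 15 alternatives. Tgm3 met the filter of the joint fit only through the F1 chlordecone libraries, so these p-values are not read as support for a difference.

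Krtdap (chromosome 7, 30787896 to 30791097, plus strand) was the tested member with the lowest log2 fold change. In F3 it was at 0.135, 0.209 and 0.0943 CPM in chlordecone 1, 2 and 3, against 0.148, 0.467 and 0.548 CPM in control 1, 2 and 3. Control 2 and 3 were high and control 1 lay among the chlordecone libraries. The means were 0.146 ± 0.0582 CPM in chlordecone and 0.388 ± 0.211 CPM in control libraries (SD, n = 3 each), a log2 fold change of -1.41 (SE 0.57, unadjusted p = 0.0365, edgeR adjusted p = 0.457). With 15, 18 and 10 reads in chlordecone 1, 2 and 3, Krtdap met the edgeR filter on low counts only with the control libraries. Its F3 p-values are therefore not read as support for a difference. In F1 Krtdap had 1, 16 and 6 reads in chlordecone 1, 2 and 3, against 9 and 0 reads in control 1 and 2, and did not pass the filter. Chlordecone 2 was the highest F1 library for Krtdap, as it was for Ivl and Tgm3.

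**Figure D2:**
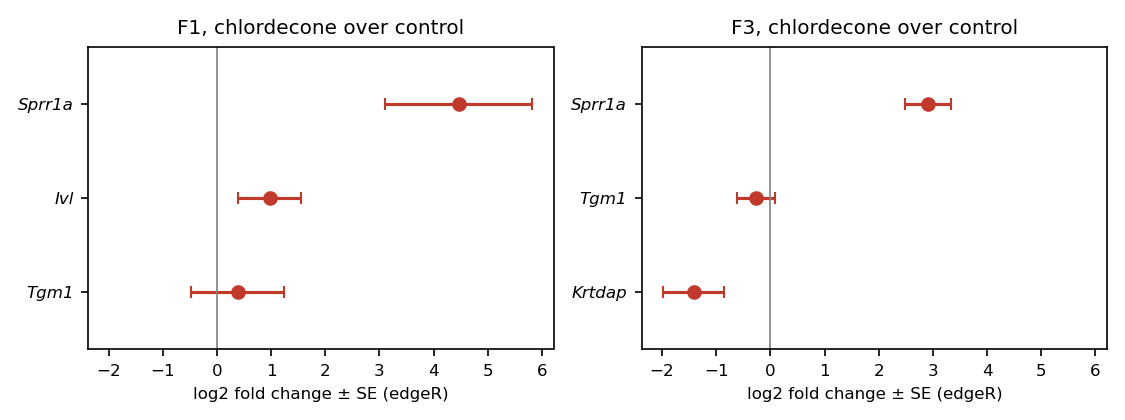
edgeR log2 fold change, chlordecone over control, of the tested genes in F1 (left) and F3 (right), with bars of 1 SE. Sprr2a1 is left out because its controls had 0 reads. Sprr1a stood at 4.47 in F1 and 2.91 in F3, while Tgm1 lay within 1 SE of 0 in both and Krtdap was at -1.41 in F3.

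Of the 3 members tested in F1, 0 passed the edgeR threshold and 1 had an unadjusted p under 0.05, as did 11.5% of all genes tested. Their median log2 fold change was 0.97, against 0.02 over all genes. Of the 4 tested in F3, 0 passed. Sprr2a1 was admitted only by the chlordecone group. Krtdap (lower in chlordecone, unadjusted p under 0.05) was admitted only with the control group, where it was high. Of the remaining members, Sprr1a and Tgm1, Sprr1a (higher in chlordecone) had an unadjusted p under 0.05, as did 10.6% of all genes. By DESeq2, Sprr1a passed in F1, where 3.70% of genes did, and in F3, where 1.24% did. For the difference between the generations, 0 of 5 members passed by edgeR or by DESeq2, by which 6.90% of genes did. Of the 5, 1 had an unadjusted p under 0.05 (Tgm3, admitted only by the F1 chlordecone group), as did 16.9% of genes. The F3 effect minus the F1 effect of Sprr1a was -1.47 (SE 1.31, edgeR adjusted p = 0.613).

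**Figure D3:**
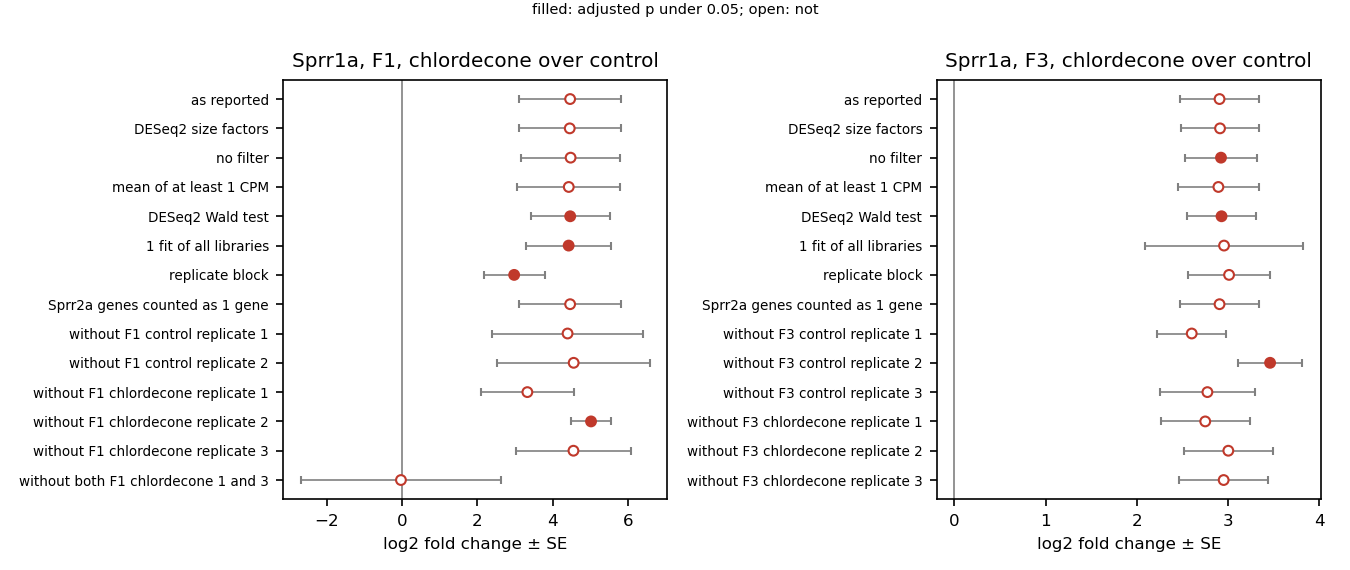
Log2 fold change of Sprr1a, chlordecone over control, in F1 (left) and F3 (right) under each processing setting, with bars of 1 SE and filled points where the adjusted p was under 0.05. The F1 value was -0.026 without chlordecone 1 and 3 and 5.02 without chlordecone 2, while the F3 values stayed between 2.60 and 3.46.

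Per kilobase of exon, which lets genes be compared, the order of the members differed with group. In F1 chlordecone libraries mean levels were 18.4 CPM per kilobase for Sprr1a, 3.04 for Ivl, 0.585 for Tgm1, 0.583 for Krtdap and 0.144 for Tgm3. In F1 control libraries they were 1.54 for Ivl, 0.826 for Sprr1a, 0.449 for Tgm1, 0.347 for Krtdap and 0.0127 for Tgm3. The library values of Tgm1 and Krtdap, and of Krtdap and Tgm3, overlapped in both F1 groups, as did those of Sprr1a and Ivl in F1 chlordecone. In F3 chlordecone libraries Sprr1a led at 3.79 CPM per kilobase, above Tgm1 at 0.855, Krtdap at 0.215 and Sprr2a1 at 0.0523, with no overlap between neighbours in that order. In F3 control libraries Tgm1 led at 1.03 CPM per kilobase, above Krtdap at 0.571 and Sprr1a at 0.511, whose library values overlapped. Ivl was at 0.0118 and 0.00183 CPM per kilobase in F3 chlordecone and F3 control libraries. Levels set across the generations are descriptions, since the F1 table held no gene with fewer than 20 reads in all and the F3 table held genes with 1.

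Among other genes of squamous maturation, 0 passed the edgeR threshold in either generation. By DESeq2, 5 passed in F1 (Sprr2a3, Scel, Krt4, Ly6d and Lgals7), all higher in chlordecone, and 0 in F3, against 3.70% and 1.24% of all genes. Sprr2a3, Scel, Krt4 and Lgals7 were low in the F1 controls, at means of 0.240, 0.0703, 0.281 and 0.455 CPM. They met the edgeR filter on low counts only with the chlordecone libraries, so their calls are not read as support for a difference. Of the other small proline-rich genes (11 listed), 2 were tested in F1 and 1 in F3. In F1, 1 (Sprr2a3) had an unadjusted p under 0.05, as did 11.5% of all genes. Of other envelope proteins and precursors (25 listed), 7 were tested in each generation, with median log2 fold changes of 0.57 in F1 and 0.00 in F3. Cstb, the cysteine protease inhibitor cystatin B, was at 92.8, 23.4 and 84.6 CPM in F1 chlordecone, against 53.2 and 37.1 CPM in F1 control libraries. In F3 it was at 78.8, 69.5 and 78.7 CPM in chlordecone, against 80.2, 120 and 93.4 CPM in control libraries, where chlordecone lay below (log2 -0.37, SE 0.16, edgeR adjusted p = 0.467). The share of all genes with chlordecone below was not counted. Scel, named after its values were seen, encodes the envelope precursor sciellin. It was at 20.6, 1.15 and 4.33 CPM in F1 chlordecone, against 0 and 0.141 CPM in F1 control libraries, and at 0.116 to 0.296 CPM in F3 chlordecone, against 0.170 to 0.222 CPM in F3 control libraries. Its F1 control mean was under the floor and it entered the F1 test only through the chlordecone group, so its DESeq2 call is not read as support for a difference.

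Suprabasal squamous markers (18 listed) had 13 tested in F1, 4 of them with an unadjusted p under 0.05 and higher in chlordecone. They had 10 tested in F3, 1 of them so. Of all genes, 11.5% in F1 and 10.6% in F3 had an unadjusted p under 0.05 in either direction. The F1 count includes Krt4 and Lgals7, which met the edgeR filter only with the chlordecone libraries. That count is therefore not read as support for a difference. Ly6d, a surface protein of stratified epithelia, was at 39.7, 1.74 and 30.1 CPM in F1 chlordecone 1, 2 and 3, against 1.78 and 2.20 CPM in F1 control 1 and 2. It had the same high libraries as Sprr1a (log2 3.58, SE 1.11, edgeR adjusted p = 0.295, DESeq2 adjusted p = 0.00428). In F3 its groups overlapped, with 0.691, 0.325 and 1.35 CPM in chlordecone and 0.762, 1.78 and 0.764 CPM in control libraries. Dsc2, a desmosomal cadherin, was at 30.4 ± 3.44 CPM in F1 chlordecone (SD, n = 3) and 31.6 ± 0.799 CPM in F1 control libraries (SD, n = 2).

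Regulators of squamous differentiation (17 listed) had 17 tested in F1 and 15 in F3. At an unadjusted p under 0.05, 1 was higher and 1 lower in chlordecone in F1, and 1 was higher in F3. Of all genes, 11.5% in F1 and 10.6% in F3 were under that value. Ehf, an epithelial ETS factor and the most abundant of them, was at 157 ± 3.02 CPM in F1 chlordecone (SD, n = 3) and 242 ± 29.1 CPM in F1 control libraries (SD, n = 2). Ehf had chlordecone below with no overlap, for which the share of all genes was not counted (log2 -0.62, SE 0.26, edgeR adjusted p = 0.410). In F3 its groups overlapped, at 1270 ± 170 CPM in chlordecone and 1058 ± 335 CPM in control libraries (SD, n = 3 each). Lipid envelope and barrier enzymes (13 listed) had 10 tested in F1 and 7 in F3. Ugcg, which makes glucosylceramide, was at 52.5 ± 2.39 CPM in F3 chlordecone and 37.5 ± 2.47 CPM in F3 control libraries (SD, n = 3 each). Its groups did not overlap, as with chlordecone above in 8.34% of the genes tested (log2 0.49, SE 0.11, edgeR adjusted p = 0.330). Of the other transglutaminases (4 listed), 2 were tested in F1 and 1 in F3. Tgm2, the tissue transglutaminase, was at 68.6 ± 5.44 CPM in F3 chlordecone and 59.97 ± 10.2 CPM in F3 control libraries (SD, n = 3 each).

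**Figure D4:**
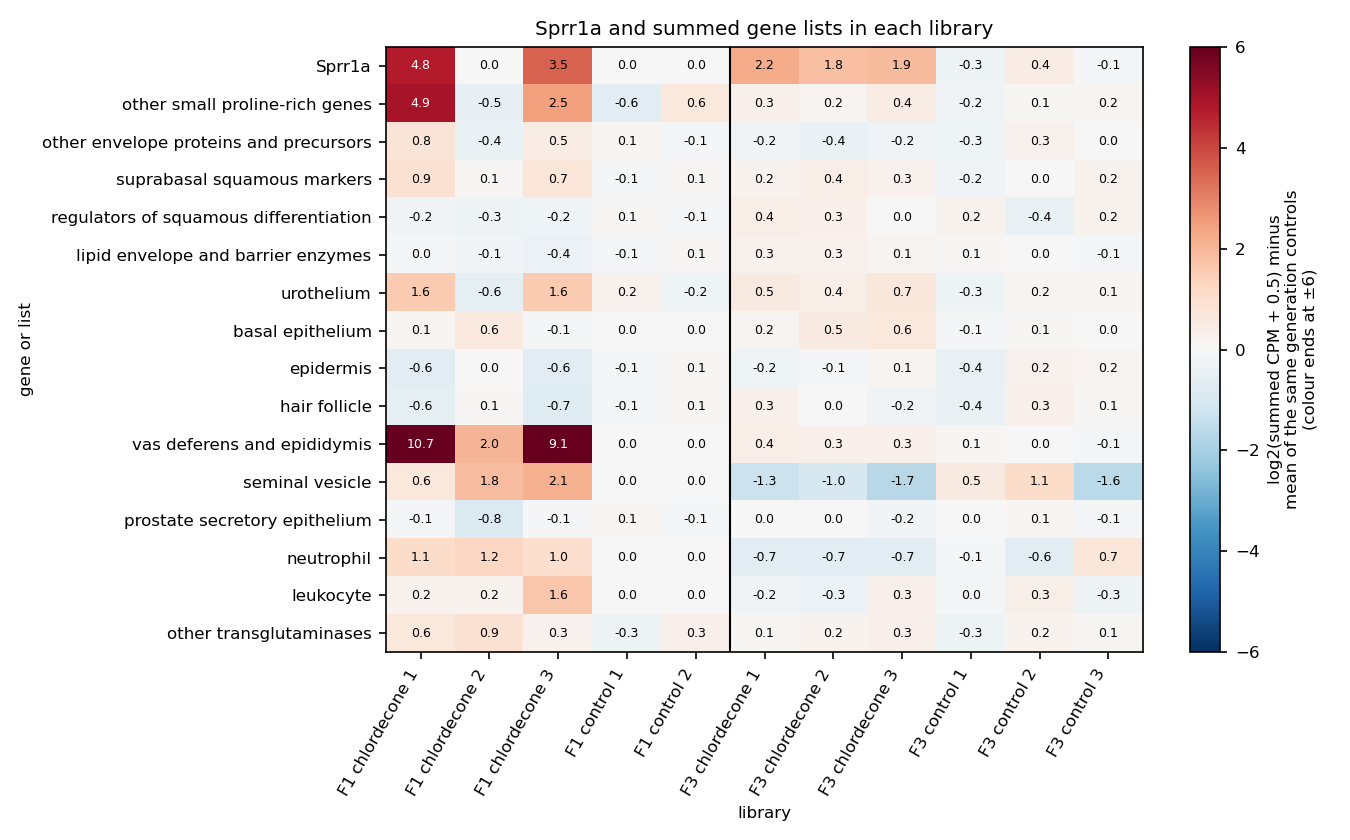
Sprr1a and the summed level of each gene list in the 11 libraries, as log2(summed CPM + 0.5) minus the mean of the controls of the same generation. Colour gives the difference and ends at 6 in each direction. In F1 chlordecone 1 and 3, Sprr1a (4.8 and 3.5) and the vas deferens and epididymis markers (10.7 and 9.1) were high together, while in the F3 chlordecone libraries those markers were at 0.3 to 0.4 and Sprr1a at 1.8 to 2.2.

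Some markers of the urothelium, a stratified lining that adjoins the prostate, were high in the libraries where Sprr1a was high. The 8 markers, all with a row, summed to 79.7, 17.4 and 78.2 CPM in F1 chlordecone 1, 2 and 3, against 31.2 and 22.1 CPM in F1 control 1 and 2. They summed to 201, 187 and 223 CPM in F3 chlordecone 1, 2 and 3, against 114, 158 and 150 CPM in F3 control 1, 2 and 3. In F1 the same 2 libraries were high as for Sprr1a, and in F3 the sums did not overlap, with most of each F3 sum from Upk1b. Singly, 5 of the 8, all tested, lay with chlordecone above in F1, against 16.2% of all genes tested. Of these, Upk3a, Upk3b, Krt20 and Snx31 were low in the F1 controls, at means of 0.505, 0.152, 0.181 and 0.542 CPM. They met the edgeR filter on low counts only with the chlordecone libraries, so this count is not read as support for a difference. In F3, 2 of the 5 tested (Upk1a and Upk1b) lay with chlordecone above, against 8.34% of all genes tested. Upk1a, which encodes a tetraspanin of the urothelial plaque, was the 1 listed gene that passed the edgeR threshold and rose in F3 (log2 2.46, SE 0.23, edgeR adjusted p = 0.0102), with 14.6, 20.2 and 14.95 CPM in chlordecone 1, 2 and 3, against 3.52, 2.23 and 3.24 CPM in control 1, 2 and 3. Among the other uroplakins, Upk1b was at 165 ± 15.2 CPM in F3 chlordecone and 107 ± 7.26 CPM in F3 control libraries (SD, n = 3 each), and at 17.6 ± 7.38 CPM in F1 chlordecone (SD, n = 3) and 20.7 ± 3.73 CPM in F1 control libraries (SD, n = 2). Upk3b was at 19.1 ± 5.02 CPM in F3 chlordecone and 28.6 ± 21.1 CPM in F3 control libraries (SD, n = 3 each), where it was not higher. Upk2 was at 2.33, 2.64 and 3.97 CPM in F3 chlordecone, against 1.99, 3.03 and 2.19 CPM in F3 control libraries, and Upk3a had 3 to 5 reads in F3 chlordecone, against 6 to 10 reads in F3 control libraries. The part of the urothelial markers in the Sprr1a values was not tested.

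Basal epithelial markers (10 listed, all with a row) summed to 237, 304 and 323 CPM in F3 chlordecone, against 201, 220 and 209 CPM in F3 control libraries. None of the 9 tested passed by edgeR and 5 had an unadjusted p under 0.05, all higher, against 10.6% of all genes. By DESeq2, Col17a1, a hemidesmosomal collagen, passed in F3 (adjusted p = 0.0339). The 5 included Krt5, a basal keratin, at 59.6 ± 7.52 CPM in chlordecone and 43.0 ± 9.53 CPM in control libraries (SD, n = 3 each). In F1 the 10 basal markers summed to 235, 334 and 207 CPM in chlordecone, against 222 and 218 CPM in control libraries. Of these, Dst had means of 168 and 167 CPM. All 10 were tested, 5 lay with chlordecone above, against 16.2% of all genes tested, and 1 lay below. None passed by edgeR, and 2 passed by DESeq2, against 3.70% of all genes. Krt5 (DESeq2 adjusted p = 0.00852) was at 14.2, 11.3 and 12.1 CPM in chlordecone, against 2.83 and 4.78 CPM in control libraries. Krt14 (DESeq2 adjusted p = 0.00328) was at 4.87, 5.94 and 7.64 CPM, against 1.36 and 0.750 CPM. The part of the basal markers in the member values was likewise not tested. Epidermal markers (12 listed, 8 with a row in each table) were lower or level: 18.5, 28.6 and 18.8 CPM in F1 chlordecone, against 27.5 and 30.6 CPM in F1 control libraries, and 2.86 to 3.76 CPM in F3 chlordecone, against 2.45 to 4.19 CPM in F3 control libraries. Hair follicle markers (9 listed) summed to 20.4, 32.5 and 18.7 CPM in F1 chlordecone, against 29.3 and 32.6 CPM in F1 control libraries, and to 5.6 to 8.14 CPM in F3 chlordecone, against 4.94 to 8.26 CPM in F3 control libraries. Neutrophil markers (7 listed) summed to 0.825 to 0.840 CPM in F3 chlordecone, against 0.877 to 3.02 CPM in F3 control libraries, and to 2.35 to 2.84 CPM in F1 chlordecone, against 0.891 and 0.937 CPM in F1 control libraries. Leukocyte markers (7 listed) summed to 7.09 to 11.5 CPM in F3 chlordecone, against 7.27 to 11.7 CPM in F3 control libraries, and to 13.9 to 38.8 CPM in F1 chlordecone, against 11.8 and 12.3 CPM in F1 control libraries.

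The 5 genes whose pattern over the 11 libraries was nearest to the mean pattern of the 5 members with a row in both tables were Emp2, Usb1, Pex3, Zyx and Tns2. Likeness was the root mean square difference of log2(CPM + 0.5), centred within each generation, and was 0.110 to 0.153 for these, against a median of 0.459 over 11660 candidate genes. Emp2, an epithelial membrane protein, was at 22.8 ± 5.995 CPM in F1 chlordecone (SD, n = 3) and 10.6 ± 3.67 CPM in F1 control libraries (SD, n = 2), and at 9.62 ± 1.24 CPM in F3 chlordecone and 8.20 ± 1.30 CPM in F3 control libraries (SD, n = 3 each). For Sprr1a alone, a comparison chosen after its values were seen, the nearest were Hpgd, P2rx1, Sost, Prdm10 and Upk1a, at 0.604 to 0.710 against a median of 1.54. Hpgd, which inactivates prostaglandins, was at 1638, 98.1 and 654 CPM in F1 chlordecone 1, 2 and 3, against 91.6 and 71.9 CPM in F1 control 1 and 2, with the same high libraries as Sprr1a. Within 500 kilobases of Sprr1a, 67 genes are annotated, of which 9 were tested in F1 and 8 in F3, and none passed by edgeR. An unadjusted p under 0.05 was found for 2 in F1 and 4 in F3, against 11.5% and 10.6% of all genes. These counts include Sprr1a in both generations, Sprr2a3 in F1 and Sprr2a1 in F3. Sprr2a3 and Sprr2a1 met the filter only through the chlordecone libraries, so the counts are not read as support for a difference around Sprr1a.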

How the data were processed

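Male mouse prostate RNA was sequenced as stranded poly-A libraries, per the labels' protocols. For each generation the authors deposited raw counts in a table with 1 row per Ensembl gene. The submitters' processing notes name the mm10 build and the tools DESeq2 1.6.3, HTSeq 0.6.1, Bowtie2 2.1.0, TopHat2 2.0.14 and bcl2fastq 2.17.1.14. No source used here gives the strand setting or the annotation release, so reads of overlapping genes are uncertain. Columns lettered C were read as control and K as chlordecone (kepone), and 0 columns were left over. The authors' own fold changes and p-values were not used.

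Levels are CPM computed from the deposited counts with TMM factors. Tests used edgeR 4.0.16 (R 4.3.3) within each generation (filterByExpr with minimum count 10 and minimum total 15, quasi-likelihood F test, 2-sided, no covariate, Benjamini-Hochberg adjustment over all genes tested, threshold 0.05). The difference between generations was tested as the interaction term over the 17039 genes shared by the tables, all 11 libraries together. F1 was planned as 3 against 3 and had 2 controls. The code was tested on simulated data. Alternatives were DESeq2 1.42.0 (size factors, and the Wald test), a mean CPM filter of 1, no filter, 1 fit of all libraries, a replicate block and leaving out each library, and, added after seeing the data, the Sprr2a copies as 1 gene and F1 without chlordecone 1 and 3. DESeq2 adjusted p-values given as missing stayed missing.

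Members, gene lists and tests were chosen with earlier results of these data known. Named were all members with a row, listed genes past the threshold, the 2 with the highest mean CPM per list and the 5 nearest in pattern, of which the text gives a selection. Scel, Krt4, Lgals7 in F1, Krt5 and Krt14 in F1, Ly6d in F3 and Col17a1 were chosen after their values were seen. So were Upk2, Upk3a, Krt20, Snx31 and the genes nearest to Sprr1a. F1 control 1 and 2 were the most alike F1 pair (chi-square per gene 16.6, against 266 to 599 in the other F1 pairs) and were counted as 2. Positions were taken by Ensembl identifier from GENCODE M21 (GRCm38), since those in the F1 table differed for all 5 members and those in the F3 table for Tgm1. Upstream windows are RefSeq GRCm38.p6.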

Additional observations from a re-analysis of the deposited data

How the results depend on the processing

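Of the members, Sprr1a and, with DESeq2 in F3, Sprr2a1 changed side of the threshold with the setting. In F1 the count of members past it was 0, and 1 (Sprr1a) with the DESeq2 Wald test, with 1 fit of all libraries (adjusted p = 0.0408) and with a replicate block (log2 2.98, adjusted p = 0.0178), and it ranged from 0 to 1 when each library was left out. In F3 it was 0, and 1 with no filter and 2 with the DESeq2 Wald test (Sprr1a, and Sprr2a1 against controls at 0 reads), and it ranged from 0 to 1 when each library was left out. Over all genes, the F1 count of 5 was 21 with no filter, 692 with DESeq2, 930 with 1 fit, 322 with the replicate block, 1226 without chlordecone 1 and 3, and 0 to 2604 leaving out each library, the highest without chlordecone 2. The F3 count of 10 was 38 with no filter, 228 with DESeq2, 2 with 1 fit, and 7 to 41 leaving out each library, the highest without control 1. The count of 122 for the difference between generations was 188 at a mean of at least 1 CPM, 1150 with DESeq2, 49 with the replicate block, and 27 to 2320 leaving out each library, the highest without F1 chlordecone 2. Directions turned for Sprr1a in F1 (-0.026 without chlordecone 1 and 3), for Tgm1 when each library was left out (-0.14, without control 2, to 1.22 in F1, and -0.49 to 0.055, without chlordecone 2, in F3), and for Sprr1a between generations (0.059 with the replicate block). The other member results kept their direction in the alternatives run, and the cause of these shifts was not tested.

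Samples with the same replicate number did not deviate together (correlations of 0.0569 and 0.0638 in F1 and -0.0525 to 0.195 in F3), and in F3 not every sample correlated best with its own number, so the shared numbers were not read as pairs. Leaving out F1 control 3 was not run, since that library was not analysed here. Ivl in F3 and Tgm3 rest on 0 to 21 reads per library, which limits any statement on them.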
